A study of Homo sapiens with 6 samples.

Results

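The 37 genes of the human mitochondrial genome were followed in RCC4, an established line grown from a clear cell renal cell carcinoma, by direct sequencing of native poly(A)-selected RNA on nanopores. They were taken by position, as every gene that the count tables place on chromosome MT, and earlier results of these data were known. They are 37 of the 61541 genes listed. Of these, 13 are mRNAs, 2 are rRNAs and 22 are tRNAs. The comparison was between 3 untreated cultures and 3 cultures given interferon gamma (IFNγ, 1000 U/mL) and tumour necrosis factor (TNF, 25 ng/mL) together for 24 h. All cultures were of 1 line with no further genetic change named in the labels, and each replicate drew on 3 flasks. The labels call the replicates biological but do not say whether they were grown on separate days.

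Mitochondria keep a small circular genome that is transcribed from both strands into long precursors, named after the heavy and the light strand. Most genes lie on the heavy-strand transcript, and the tRNAs that punctuate it are cut out to release the mRNAs and rRNAs on either side. The mRNAs encode core subunits of the respiratory chain and of the ATP synthase, most of them receive a short poly(A) tail from a mitochondrial poly(A) polymerase, and in several that tail completes the stop codon. The kidney tubule depends heavily on respiration, and clear cell renal carcinoma is known for a shift away from it. Every count below is of a molecule that passed poly(A) selection, so the counts do not measure the amount of RNA that carries no tail.

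Total counts per library ran from 3626000 to 4406296. At this depth a gene listed at 0 could still hold up to 3 counts, or 0.674 to 0.862 CPM (counts put on 1 common library size by TMM scaling), for counting error only. Between replicates, chi-square divided by its degrees of freedom was 3.48 to 24.7 over all genes and 41.9 to 173.3 over the mitochondrial genes, above the value near 1 that counting noise gives. At equal relative spread this ratio grows with the counts per gene, so the 2 ranges do not show which genes vary more. Of the genes set to check cytokine exposure, IRF1, GBP1, ICAM1 and CXCL10 were each higher in the treated libraries by edgeR's quasi-likelihood test. Of 10 genes set to check the identity of the line, 9 had counts and CDH1, which encodes E-cadherin, had none. Within that list PAX8 and KRT19 were called lower and VIM higher in treated libraries, and the summed level of the list was 6464 to 8126 CPM in untreated and 8406 to 11736 CPM in treated libraries. Without VIM the sums overlapped, at 2019 to 3202 CPM untreated and 2111 to 3669 CPM treated. Among markers of other cells, 1 of 5 for fibroblasts had counts (COL1A1, 44.3 to 63.0 CPM untreated and 24.4 to 46.3 CPM treated), and 1 of 5 for leukocytes held 2 counts in all. The 5 endothelial markers were at 0.

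The ends of the genes are shown first, as the annotation gives them, and where the reads ended was not measured. By GENCODE 29, whose coordinates on GRCh38 equal those of the count tables for all 37 genes, 8 of the rRNA and mRNA genes are followed by a tRNA with no base between them. The last 15 bases of each such gene are printed in lower case and the first 15 of the tRNA in capitals, on the heavy-strand transcript, 5′ to 3′.
MT-RNR1 into MT-TV (chrM:1587-1616, + strand): tgcacttggacgaacCAGAGTGTAGCTTAA
MT-RNR2 into MT-TL1 (chrM:3215-3244, + strand): ccaagaacagggtttGTTAAGATGGCAGAG
MT-ND1 into MT-TI (chrM:4248-4277, + strand): tccccctcaaacctaAGAAATATGTCTGAT
MT-ND2 into MT-TW (chrM:5497-5526, + strand): tactaataatcttatAGAAATTTAGGTTAA
MT-CO3 into MT-TG (chrM:9976-10005, + strand): attgatgagggtcttACTCTTTTAGTATAA
MT-ND3 into MT-TR (chrM:10390-10419, + strand): tagactgaaccgaatTGGTATATAGTTTAA
MT-ND4 into MT-TH (chrM:12123-12152, + strand): ccgggttttcctcttGTAAATATAGTTTAA
MT-CYB into MT-TT (chrM:15873-15902, + strand): tactcaaatgggcctGTCCTTGTAGTATAA
In all 6 of the mRNAs among them the annotated gene stops inside a codon. MT-ND1 ends in TA, and MT-ND2, MT-CO3, MT-ND3, MT-ND4 and MT-CYB end in a single T, which is the last lower-case base of each line. The other 7 mRNAs end in a complete stop codon in the annotation. In 3 of the 8 junctions the tRNA begins with A (after MT-ND1, MT-ND2 and MT-CO3), so the first base past the cut is one that a tail would also supply.

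A second feature of the sequence bears on counting. MT-ATP8 and MT-ATP6, both subunits of the ATP synthase, share 46 bases, and MT-ND4L and MT-ND4, both subunits of complex I, share 7, and each pair is read in cells from 1 transcript that carries both frames. The overlaps are printed below, with the start codon of MT-ATP6 and the stop codon of MT-ATP8 in capitals in the first, and the shared 7 bases in capitals with 12 bases on each side in the second.
MT-ATP8 and MT-ATP6 (chrM:8527-8572, + strand): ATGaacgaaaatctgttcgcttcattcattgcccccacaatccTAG
MT-ND4L and MT-ND4 (chrM:10748-10778, + strand): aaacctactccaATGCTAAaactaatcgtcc
By the counting program's default, a read lying over 2 genes of the same strand is assigned to neither, and the file headers set no option that changes this. A read that spans either overlap is therefore in neither gene's count. How many such reads there were was not measured here, and the values of MT-ATP8, MT-ATP6, MT-ND4L and MT-ND4 are uncertain for this reason. The same limit holds for reads across the single base that MT-ATP6 shares with MT-CO3, and for those across the base that MT-TY shares with MT-TC. It holds too for any read that runs from 1 gene into another of the same strand, as across the 8 junctions printed above.

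The 37 genes together held 5.21%, 4.59% and 6.13% of all counts in untreated replicates 1, 2 and 3, and 5.31%, 5.25% and 5.61% in treated replicates 1, 2 and 3. The groups overlapped, and the lowest and the highest share were both in untreated libraries. The means were 5.31% ± 0.776 untreated and 5.39% ± 0.191 treated (SD, n = 3 each), and a 2-sided exact permutation test of the difference, 0.080 percentage points, had p = 0.8. With 3 libraries a group that test cannot go below 0.1, and over the 8 measures of this kind the Benjamini-Hochberg adjusted p was 0.9. Wilson 95% intervals were at most 0.0237 percentage points wide on either side, narrower than the distance between any 2 replicates of a group. These are shares of RNA from whole cultures, in which fewer cells of a type and less RNA per cell cannot be told apart.

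Of the 37 genes, 15 had enough counts to be tested among 10067 genes. None of the 15 was called at an adjusted p under 0.05 by edgeR's quasi-likelihood test, where 8.14% of all genes tested were called (5.58% higher and 2.55% lower in treated libraries). None reached an unadjusted p under 0.05 either, a level that 19.8% of all genes passed, and DESeq2 and limma voom likewise gave 0 calls and 0 unadjusted p under 0.05. The fitted log2 fold changes ran from -0.08 to 0.31 and 12 of the 15 were positive, with a median of 0.14 against -0.03 over all genes tested. Scaling by library totals alone moved the median of all genes by -0.10, to -0.13, and left 12 of the 15 positive with a median of 0.04.

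A missed threshold does not show equal levels, so the width of the 95% intervals is given. For 13 of the 15 genes the interval lay inside a 2-fold change in either direction, between 0.751-fold and 1.77-fold. The exceptions were MT-ND6 (0.621-fold to 2.14-fold) and MT-TY (0.349-fold to 2.56-fold), the tested genes with the fewest counts and the ones that come from the light-strand transcript. The other 22 genes, 21 tRNAs and MT-ATP8, did not pass the filter on low counts. With the filter lowered to a single count, 27 of the 37 entered, none was called and the lowest unadjusted p was 0.119.

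**Figure D1:**
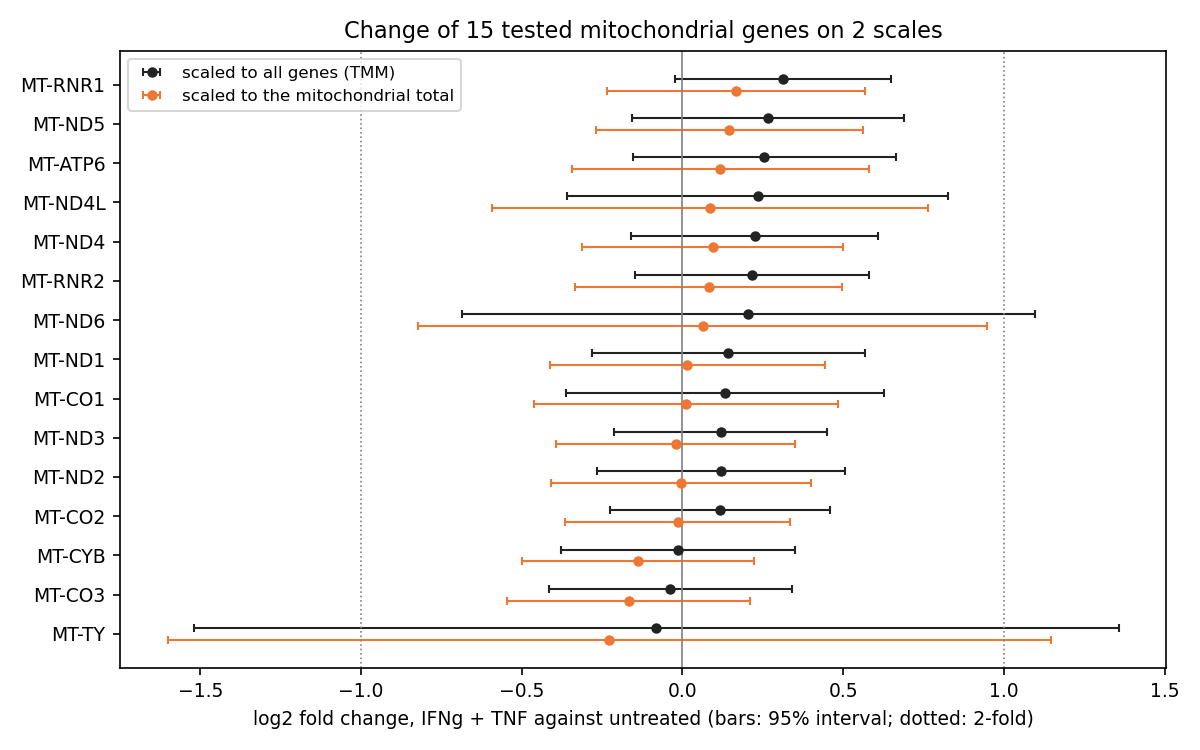
Log2 fold change of the 15 tested mitochondrial genes, treated against untreated, on the x axis, with 95% intervals as bars, scaled to all genes (black) or to the mitochondrial total (orange); dotted lines mark a 2-fold change. Every bar crosses 0, from MT-RNR1 at 0.31 to MT-TY at -0.08 on the scale of all genes.

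The 2 rRNAs are the RNA core of the mitochondrial ribosome, MT-RNR1 in the small subunit and MT-RNR2 in the large subunit. MT-RNR1 (chrM:648-1601, + strand, ENSG00000211459) was at 3855, 3952 and 3742 CPM in untreated replicates 1 to 3 and at 4615, 4277 and 5457 CPM in treated ones. All 3 treated values lay above all 3 untreated ones, and MT-RNR1 was the only one of the 14 members at a mean of 10 CPM or more for which this held, while 25.9% of all genes tested had groups that did not overlap in either direction. Its log2 fold change was 0.31 (SE 0.15), with an unadjusted p of 0.0640 and an adjusted p of 0.291 by edgeR, so the difference did not pass the threshold. The spread was wider in treated libraries (4783 ± 608 CPM) than in untreated ones (3849.5 ± 105.2 CPM; SD, n = 3 each).

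MT-RNR2 (chrM:1671-3229, + strand, ENSG00000210082) was at 6976, 8562 and 10031 CPM in untreated and at 9834, 9781 and 10101 CPM in treated replicates. Untreated replicate 3 lay within the treated range, while untreated replicates 1 and 2 were below it. In edgeR its log2 fold change was 0.22 (SE 0.16, adjusted p = 0.554). The ratio of MT-RNR2 to MT-RNR1 counts was 1.81, 2.17 and 2.68 in untreated and 2.13, 2.29 and 1.85 in treated libraries, overlapping, with p = 0.8 by the exact permutation test. The share of mitochondrial counts held by both rRNAs was 24.4% ± 3.50 untreated and 26.3% ± 1.22 treated (SD, n = 3 each; exact permutation p = 0.7). Untreated replicate 1, at 20.6%, was the lowest of the 6 libraries in that share. The difference of 1.91 percentage points became 0.017 without untreated replicate 1 and 3.46 without untreated replicate 2.

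Complex I, the NADH dehydrogenase at the entry of the respiratory chain, takes 7 of its subunits from this genome. MT-ND3 was the most counted of them, at 6202, 5364 and 5562 CPM untreated and 6367, 5504 and 6739 CPM treated, with an edgeR log2 fold change of 0.12 (SE 0.15, adjusted p = 0.766). MT-ND4 was at 3609, 2687 and 3140.4 CPM untreated and 4192, 3537 and 3299.8 CPM treated (0.22, SE 0.17, edgeR adjusted p = 0.563). In both genes the treated range began inside the untreated one.

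MT-ND5, the longest of the mRNAs, was at 995.5, 741 and 1121 CPM in untreated and 1258, 1088 and 1093 CPM in treated libraries. Untreated replicate 3 lay between treated replicates, and the edgeR log2 fold change was 0.27 (SE 0.19, adjusted p = 0.525). MT-ND2 was at 668, 516 and 704 CPM untreated and 670.5, 659 and 722 CPM treated, and MT-ND1 at 523, 349 and 452 CPM untreated and 503, 446 and 514 CPM treated. For both, untreated replicate 2 was the lowest of the 6 libraries, and neither passed the test (log2 fold changes 0.12 and 0.14, edgeR adjusted p = 0.807 and 0.786).

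MT-ND4L and MT-ND6 had far fewer counts than the rest of complex I. Reads over the overlap of MT-ND4L and MT-ND4 are in neither count, and their part in the low MT-ND4L value was not tested. MT-ND4L was at 47.9, 46.8 and 26.3 CPM untreated and 48.6, 53.7 and 39.7 CPM treated (log2 fold change 0.23, SE 0.26, edgeR adjusted p = 0.735). MT-ND6, the only mRNA of the light-strand transcript, was at 17.5, 10.8 and 6.57 CPM untreated and 18.1, 12.6 and 9.37 CPM treated (0.21, SE 0.39, edgeR adjusted p = 0.869). Each MT-ND6 value rests on 29 to 67 counts, and in both groups replicate 1 was the highest and replicate 3 the lowest.

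As a share of mitochondrial mRNA counts, complex I was at 28.9%, 29.5% and 26.7% in untreated and at 30.0%, 29.8% and 29.5% in treated libraries. The groups did not overlap, though treated replicate 3 at 29.46% and untreated replicate 2 at 29.45% nearly met. The means were 28.4% ± 1.44 and 29.7% ± 0.251 (SD, n = 3 each), a difference of 1.37 points with p = 0.1, the smallest that the 2-sided exact permutation test allows, and an adjusted p of 0.8 over the 8 measures. Without untreated replicate 3 the difference was 0.552 points, and as a share of all mitochondrial counts it was 0.469 points (exact permutation p = 0.7).

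Cytochrome b, encoded by MT-CYB, is the only subunit of complex III made in mitochondria. It was at 8323, 6297 and 8719 CPM untreated and 7933, 7270.0 and 7919 CPM treated, and all 3 treated values lay inside the untreated range (log2 fold change -0.01, SE 0.16, edgeR adjusted p = 0.983). As a share of mitochondrial mRNA counts it was 20.1% ± 1.04 untreated and 18.7% ± 0.488 treated (SD, n = 3 each; exact permutation p = 0.2, adjusted p = 0.8).

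The core of complex IV, cytochrome c oxidase, is formed by the products of MT-CO1, MT-CO2 and MT-CO3. MT-CO2, the most counted mitochondrial gene, was at 13598, 10850.5 and 13154 CPM untreated and 15103, 12308 and 13383 CPM treated (log2 fold change 0.12, SE 0.15, edgeR adjusted p = 0.780). MT-CO1 was at 2363, 2137 and 3434 CPM untreated and 2460.4, 2728 and 3513 CPM treated, with replicate 3 the highest in both groups (0.13, SE 0.22, edgeR adjusted p = 0.844). MT-CO3 was at 4659, 3395 and 4282 CPM untreated and 4153, 3589.7 and 4280.5 CPM treated (-0.04, SE 0.17, edgeR adjusted p = 0.9499). The groups overlapped for all 3 genes. The share of mitochondrial mRNA counts in complex IV was 49.9% ± 0.658 untreated and 49.7% ± 0.573 treated (SD, n = 3 each; exact permutation p = 0.7).

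The ATP synthase, complex V, takes MT-ATP6 and MT-ATP8 from this genome. MT-ATP6, part of the proton channel, was at 704, 586 and 583 CPM untreated and 879.7, 725 and 631 CPM treated, overlapping, with an edgeR log2 fold change of 0.26 (SE 0.18, adjusted p = 0.530). MT-ATP8 held 15, 5 and 7 counts without cytokines and 7, 12 and 0 counts with them, too few to be tested. The part of uncounted reads over the overlap in these low counts was not tested. The ATP synthase share of mitochondrial mRNA counts was 1.63% ± 0.190 untreated and 1.81% ± 0.279 treated (SD, n = 3 each; exact permutation p = 0.4).

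**Figure D2:**
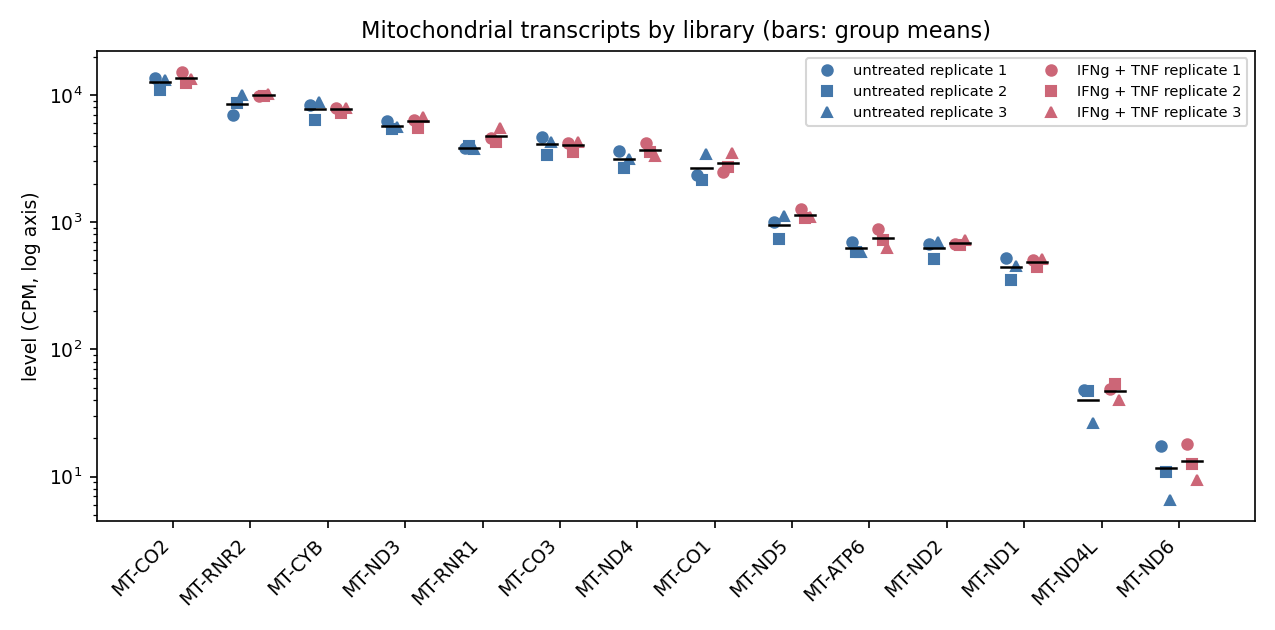
Level of each of the 14 mitochondrial genes at a mean of 10 CPM or more (y axis, CPM, log axis) in the 3 untreated (blue) and 3 treated (red) libraries, with bars for group means. Points of both groups overlap for every gene but MT-RNR1, whose treated values begin at 4277 CPM above the highest untreated value of 3952 CPM.

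The tRNAs, which carry no poly(A) tail as mature molecules, held 261 of the 1257931 mitochondrial counts. Of the 22, 10 were at 0 in all 6 libraries and 12 had at least 1 count. The 8 tRNAs of the light-strand transcript took 179 of these counts, from 5 genes, and the 14 of the heavy-strand transcript took 82, from 7 genes. By the counting rule given above, a read that runs from a tRNA into another gene of the same strand is in neither count. The part of that rule in the tRNA counts, in those at 0 and in the difference between the strands was not tested.

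MT-TY, the tRNA for tyrosine, was the most counted, with 26, 12 and 7 counts in the untreated replicates and 23, 10 and 7 in the treated ones. It was also the only tRNA that passed the filter, with an edgeR log2 fold change of -0.08 (SE 0.64, adjusted p = 0.973). Next came MT-TF with 49 counts over the 6 libraries, MT-TP with 30, MT-TQ with 29, MT-TS1 with 28 and MT-TT with 24, and each of the other 6 had 7 or fewer. Whether these reads are tRNA precursors, stretches of longer transcripts or mature tRNAs was not tested.

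Light-strand transcripts as a whole, MT-ND6 and its 8 tRNAs, held 0.0570%, 0.0345% and 0.0214% of mitochondrial counts in untreated replicates 1 to 3 and 0.0559%, 0.0346% and 0.0236% in treated ones. These rest on 115, 61 and 52 counts and on 113, 80 and 48 counts, and the Wilson 95% interval of untreated replicate 1 was 0.0475% to 0.0684%. Replicate 1 was the highest and replicate 3 the lowest in both groups, and the difference between groups gave an exact permutation p of 0.9.

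**Figure D3:**
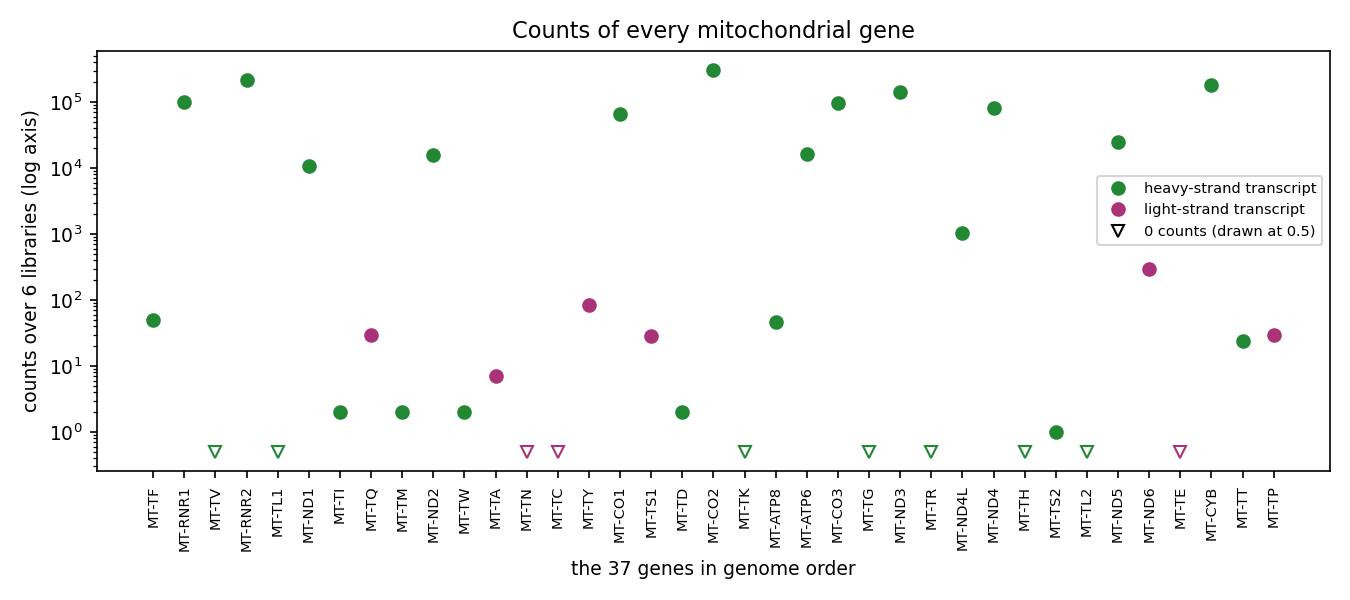
Counts summed over the 6 libraries (y axis, log axis) for each of the 37 mitochondrial genes in genome order, with heavy-strand transcripts in green and light-strand transcripts in purple; open triangles are genes with 0 counts. The tRNAs lie at 85 counts or fewer, and MT-ATP8 with 46 counts and MT-ND6 with 290.0 are the lowest of the mRNAs.

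Levels were ordered between genes per kilobase of annotated length, since genes differ in length, although reads that start at the 3′ end are counted once whatever their length. In untreated libraries MT-CO2 was first at 18325 ± 2157 CPM per kilobase and MT-ND3 second at 16502 ± 1266 (SD, n = 3), and their ranges overlapped. Both stood apart from MT-CYB at 6818 ± 1138, MT-RNR2 at 5467 ± 980 and MT-CO3 at 5245 ± 828, which overlapped in turn. MT-RNR1 followed at 4035 ± 110.3, separate from both neighbours on this scale, while in CPM its untreated range lay inside that of MT-CO3. Division by length raises short genes, and by CPM alone MT-RNR2 (8523) and MT-CYB (7779.6) lay above MT-ND3 (5709.5), with MT-CO2 (12534) still first.

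The lower part of the order began with MT-ND4 at 2283 ± 335 CPM per kilobase and MT-CO1 at 1715 ± 449, which overlapped. MT-ATP6 came next at 917 ± 102, apart on this scale from the group of MT-ND2 at 604 ± 95.6, MT-ND5 at 526 ± 107 and MT-ND1 at 462 ± 91.5, whose neighbours overlapped. By CPM alone MT-ATP6 (624) overlapped MT-ND2 (629) in untreated libraries and lay below the whole range of MT-ND5 (952.5). MT-ATP6 stayed above MT-ND1 (441.5). MT-ND4L at 136 ± 41.0 and MT-ND6 at 22.1 ± 10.5 were last, each below the whole range of the gene before it. Reads over the overlap with MT-ND4 are missing from the MT-ND4L value. Among the 8 genes that run straight into a tRNA, the 3 whose tRNA begins with A stood at 462 (MT-ND1), 604 (MT-ND2) and 5245 (MT-CO3) CPM per kilobase, and the other 5 between 2283 and 16502. Whether the sequence at the cut has a part in these levels was not tested.

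The composition of the mitochondrial counts was then tested apart from their amount, with the mitochondrial total of each library as its size. MT-CO2, MT-RNR2, MT-CYB and MT-ND3 together made up 67.3% of these counts. On this scale 0 of the 15 tested genes were called by edgeR, where 7.7% of all genes were, and none had an unadjusted p under 0.05. Log2 fold changes ran from -0.23 to 0.17, with 9 of 15 positive and a median of 0.02 beside -0.16 over all genes, and 14 of the 15 intervals lay within a 2-fold change, the exception being MT-TY.

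MT-CO3 was the only one of the 14 members of at least 10 CPM whose shares did not overlap, a property of 25.7% of all genes on this scale. Its share of mitochondrial counts was 8.86%, 7.46% and 7.79% in untreated and 7.15%, 6.90% and 7.42% in treated libraries, the gap between the groups being 7.46% against 7.42%. The log2 fold change was -0.17 (SE 0.17, edgeR adjusted p = 0.672). MT-CYB had 15.8%, 13.8% and 15.9% in untreated and 13.7%, 13.98% and 13.7% in treated libraries, which overlapped because of untreated replicate 2 (-0.14, SE 0.16, edgeR adjusted p = 0.720). MT-CO2 was nearly level at 25.9%, 23.8% and 23.9% against 26.0%, 23.7% and 23.2%. MT-RNR1, which stood apart in CPM, overlapped in share, at 7.33%, 8.68% and 6.81% untreated and 7.95%, 8.23% and 9.46% treated.

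**Figure D4:**
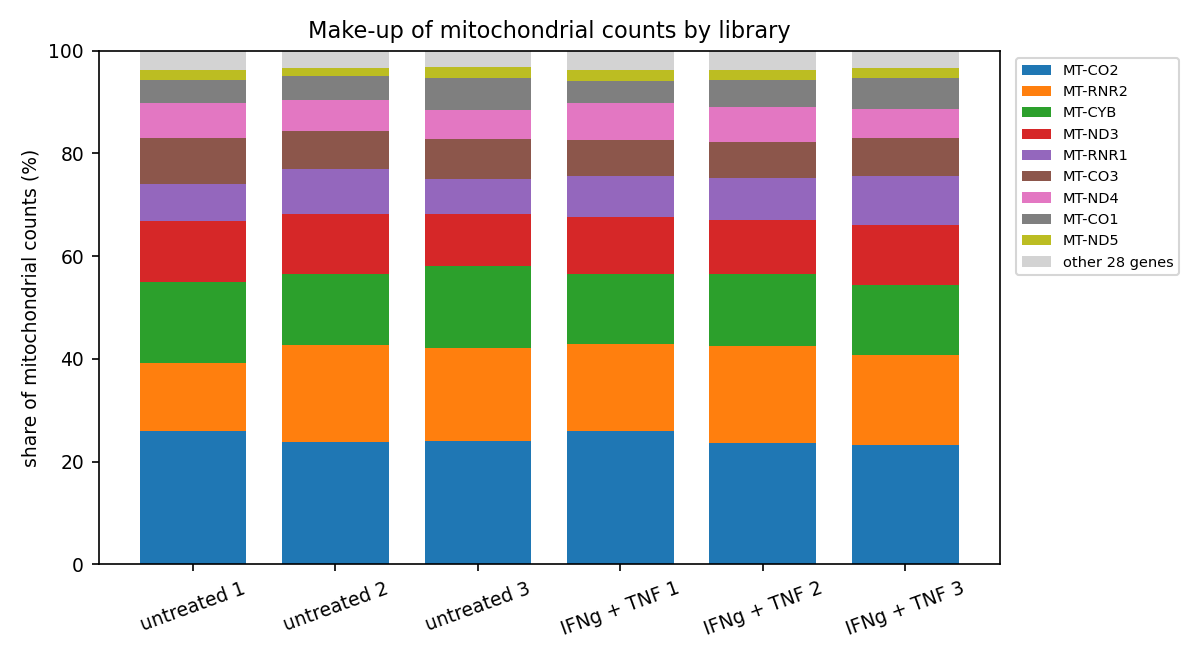
Share of mitochondrial counts (y axis, percent) taken by each of the 9 most counted genes and by the other 28 together, stacked for each of the 6 libraries. MT-CO2 takes 23.2% to 26.0% in every library, and the MT-RNR2 band of untreated replicate 1 is the thinnest at 13.3%.

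Copies of mitochondrial genes in the nuclear genome can draw reads from the originals, and the reverse. Of 417 such pseudogenes listed, 15 had a count, and together they held 216 counts, which equals 0.0172% of the mitochondrial counts. The 3 most counted lie on chromosome 1. MTCO1P12, whose sequence is 98.7% identical to MT-CO1, held 6, 14 and 12 counts untreated and 13, 14 and 19 treated. MTATP6P1, 98.5% identical to MT-ATP6, held 12, 10 and 14 untreated and 13, 16 and 5 treated, and MTND2P28, 98.4% identical to MT-ND2, held 2, 6 and 7 untreated and 8, 8 and 5 treated. Any exchange of reads between a copy and its original cannot be seen in these counts.

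The nuclear genes that transcribe, process, tail, modify and degrade mitochondrial RNA, or that copy mtDNA and regulate its expression, were grouped into 7 lists of 53 genes. Of these, 43 were tested and 0 were called by edgeR in either direction, where 8.14% of all genes were. DESeq2 and limma voom also called 0. An unadjusted edgeR p under 0.05 was found for 2 of the 43, where 19.8% of all genes tested passed that level. They were MGME1, a nuclease of mtDNA upkeep (adjusted p = 0.229), and MRM3, which methylates the large rRNA (adjusted p = 0.218). The median log2 fold change was -0.01 with 21 of 43 positive, beside -0.03 over all genes. By list, 5 of 7 genes of mtDNA transcription were tested, 9 of 10 of mtDNA replication and upkeep, 4 of 7 of transcript processing, 10 of 10 of mRNA tailing and stability, 4 of 4 of RNA decay, 8 of 9 of rRNA modification and 3 of 6 of biogenesis regulators.

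Of the genes named by rule, TFAM, which packages mtDNA and starts its transcription, was at 15.02 ± 6.47 CPM untreated and 15.2 ± 6.21 CPM treated (log2 fold change 0.02, edgeR adjusted p = 0.993). POLRMT, the mitochondrial RNA polymerase, was at 102.6 ± 35.8 and 91.1 ± 24.9 CPM (-0.17, edgeR adjusted p = 0.855). The groups overlapped for both genes (SD, n = 3 each).

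LRPPRC, which stabilises mitochondrial mRNAs, was at 16.7 ± 14.2 CPM untreated and 13.99 ± 7.64 CPM treated, which edgeR put at a log2 fold change of -0.25 (adjusted p = 0.903). MTPAP, the polymerase that adds their tails, was at 6.35 ± 3.46 and 6.29 ± 2.79 CPM (-0.02, edgeR adjusted p = 0.994). PNPT1, a nuclease of mitochondrial RNA decay that is also known as an interferon-responsive gene, was at 4.95, 11.6 and 11.8 CPM untreated and 6.61, 18.4 and 17.03 CPM treated. Replicate 1 was the lowest in both groups for PNPT1, the groups overlapped, and the log2 fold change of 0.57 (SE 0.45) had an edgeR adjusted p of 0.583.

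Of 78 genes for proteins of the mitochondrial ribosome, 72 were tested, 1 was called higher and 0 lower in treated libraries by edgeR, a smaller share than the 8.14% of all genes. Their median log2 fold change was -0.05 and 30 of the 72 were positive. The gene called was MRPL9, of the large subunit, at 32.6, 26.2 and 20.2 CPM untreated and 51.2, 49.0 and 44.0 CPM treated. Its groups did not overlap, and its log2 fold change was 0.87 (SE 0.22, edgeR adjusted p = 0.0470). The call lay close to the threshold and was lost with TMM on nuclear genes (adjusted p = 0.0522), with library totals alone (0.0505), and without treated replicate 1 (0.136), treated replicate 2 (0.122), treated replicate 3 (0.115), untreated replicate 2 (0.174) or untreated replicate 3 (0.0583).

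**Figure D5:**
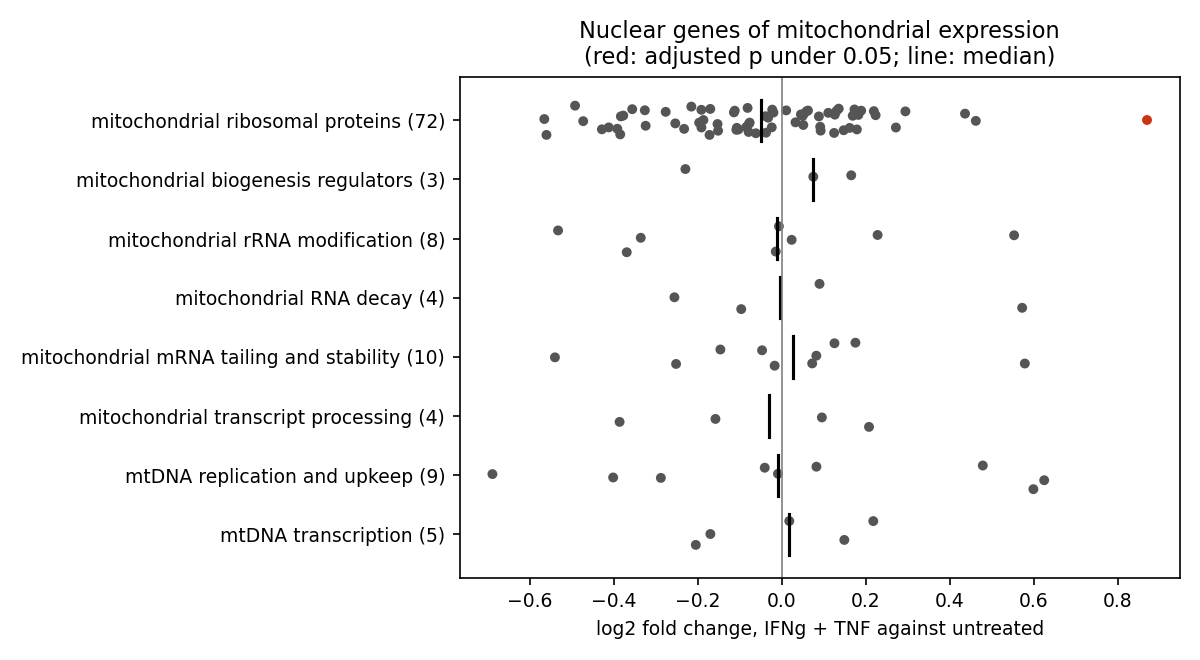
Log2 fold change, treated against untreated (x axis), of each tested nuclear gene in the 7 lists on mitochondrial DNA and RNA and in the list of mitochondrial ribosomal proteins (rows, with the number tested), with a vertical line at each list's median. The only point past the threshold is MRPL9 at 0.87, drawn in red, and the medians lie between -0.05 and 0.07.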

How the data were processed

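Native poly(A)-selected RNA (500 ng) of 3 untreated and 3 treated RCC4 cultures was sequenced for 72 h per library, keeping reads of quality above 7, per the labels' protocols and the design text of the series. Raw counts per gene were deposited. The authors made these counts with featureCounts 2.0.1 in long-read, strand-specific mode on Ensembl 105 (GRCh38), per the file headers. The submitters' processing notes name featureCounts 2.0.0, minimap2 2.24 and SAMtools 1.16. Alignment names in the headers carry the word dmso, although the labels mention no vehicle, and groups were taken from the sample titles.

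The whole table was fitted with edgeR 4.0.16 (R 4.3.3), using TMM, filterByExpr, the quasi-likelihood test with group as the only term, and Benjamini-Hochberg adjustment over 10067 genes at 0.05. CPM use TMM-scaled library sizes. A second fit took the mitochondrial total as library size. Measures with 1 value per library were compared by 2-sided exact permutation tests. P-values set the difference between groups against the spread between these cultures. Alternatives were DESeq2 1.42.0, limma 3.58.1 voom, other scalings, filters and totals, the replicate number as a block, and leaving out each library. The code was tested on simulated counts. All 37 members are named, with values in every library from a mean of 10 CPM, and of the nuclear lists those called, 5 preset genes and the 3 pseudogenes with most counts. Members and lists were chosen with earlier results of these data known. Sequences were read from GENCODE 29 transcripts (GRCh38). A further gene of the cytokine exposure check is not reported here.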

Additional observations from a re-analysis of the deposited data

How the results depend on the processing

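None of the 15 tested mitochondrial genes was called under any alternative run, and their lowest adjusted p was 0.170 over 14 alternatives on the scale of all genes and 0.418 over 11 on the mitochondrial scale. A limit is the number of libraries, since exact tests of 3 against 3 cannot pass 0.05.

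The labels do not say whether the numbers that untreated and treated libraries share mark pairs, and correlations between libraries did not settle it. Deviations from the group means correlated at 0.65, -0.004 and 0.37 for the same numbers over 10067 genes, and untreated replicate 2 correlated best with treated replicate 1 (0.25) and untreated replicate 3 with treated replicate 2 (0.41). With the replicate block, 1512 of all genes were called in place of 819, with 0 mitochondrial genes on either scale, 0 machinery genes and 2 ribosomal protein genes.

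The count of ribosomal protein genes called, 1 higher as reported, was 0 with TMM on nuclear genes, 2 with library totals alone, and 0 to 2 without 1 library. Both calls with library totals, and both without untreated replicate 3, were lower in treated libraries, and with the replicate block 1 was higher and 1 lower. The difference in mitochondrial share was -0.047 percentage points for the 13 mRNAs only and ran from -0.282 to 0.490 without 1 library (untreated replicates 2 and 3). That in complex IV share, -0.198 as reported, was 0.149 with the median in place of the mean, -1.09 (exact permutation p = 0.4) as a share of all mitochondrial counts, and -0.459 to 0.176 without 1 library (treated 3, untreated 3). Without 1 library the light-strand difference ran from -0.00856 to 0.0101 (replicate 1 of either group), and that of the rRNA ratio from -0.334 to 0.102 (untreated 1 and 3).

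Of the small log2 fold changes, that of MT-CYB turned to 0.0010 with DESeq2 and with RLE size factors, and to 0.016 with every counted gene. That of MTPAP turned to 0.00030 with DESeq2, 0.014 with every counted gene, 0.020 with limma voom and 0.024 with the replicate block, and that of TFAM to -0.092 with library totals. With a mitochondrial total without rRNAs, or of the 13 mRNAs, MT-ND2 was at 0.033, MT-CO2 at 0.021 and MT-ND3 at 0.015. Without 1 library, signs turned within these ranges on the scale of all genes: MT-CO1 -0.020 to 0.36, MT-CO3 -0.16 to 0.090, MT-CYB -0.14 to 0.079, MT-ND2 -0.0028 to 0.20, MT-ND4L -0.0097 to 0.39, MT-ND6 -0.095 to 0.64, MT-TY -0.82 to 0.64, LRPPRC -0.65 to 0.67, MTPAP -0.34 to 0.46, POLRMT -0.44 to 0.029 and TFAM -0.29 to 0.37. On the mitochondrial scale they were MT-CO1 -0.12 to 0.18, MT-CO2 -0.067 to 0.024, MT-ND1 -0.061 to 0.13, MT-ND2 -0.059 to 0.035, MT-ND3 -0.090 to 0.016, MT-ND4L -0.18 to 0.30, MT-ND6 -0.26 to 0.44, MT-RNR2 -0.062 to 0.17 and MT-TY -0.92 to 0.43. The cause of these changes was not tested.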

Other observations

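For MT-CO1 and MT-ND6, among others, the share of mitochondrial counts had the same order over the replicate numbers in both groups, an observation chosen after its values were seen and not tested. Of the 14 members at a mean of 10 CPM or more, 7 had their highest share in the same replicate number in both groups. The lowest share was in the same number for 8 of the 14. How often such matches occur over all genes was not measured, and shares of the same total depend on each other. MT-CO1 took 4.50%, 4.70% and 6.25% in untreated replicates 1, 2 and 3 and 4.24%, 5.25% and 6.09% in treated ones. MT-ND6 took 0.0332%, 0.0237% and 0.0120% untreated and 0.0312%, 0.0242% and 0.0162% treated. The labels do not say what same-numbered libraries share.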
